A study of Mus musculus with 23 samples.

Results

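The genes described here encode nuclear subunits of the 5 complexes of oxidative phosphorylation (OXPHOS), measured by bulk RNA-seq in mice 1 day after stroke, in 2 sorted brain populations: microglia (MG) and the CNS-associated macrophages below the dura, called sdCAMs. They were chosen by symbol alone, as every row starting with Nduf followed by a, b, c, s or v, with Cox4 to Cox8, Uqcr or Atp5, or equal to Sdha, Sdhb, Sdhc or Sdhd, leaving out pseudogene rows. The choice returned 99 of the 33280 genes of the table, of which 91 are counted here as subunit genes and 8 are Ndufaf assembly factors of complex I caught by the same letters. The 91 include Atp5if1, an inhibitory factor of complex V and not a subunit of it. Complex I held 41 members, complex II 4, complex III 8, complex IV 20 and complex V 18. Ndufa4 and Ndufa4l2, named after complex I, were counted with complex IV, where the Ndufa4 protein resides. Cyc1, the cytochrome c1 core subunit of complex III, does not match these letters and is given apart.

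OXPHOS moves electrons from NADH (complex I) and succinate (complex II) through complex III to oxygen at complex IV. Protons pumped by complexes I, III and IV drive ATP synthesis by complex V. A small core of each complex carries the redox centres or the catalytic sites, and a larger set of accessory subunits surrounds it. Some accessory subunits exist as paired isoforms, 1 found in most tissues and 1 known from muscle, heart, testis or lung. Most subunits are encoded in the nucleus, and the most hydrophobic ones in the mitochondrial genome. In macrophages the balance between OXPHOS and glycolysis is known to shift with activation.

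All animals carried Ccr2 CreERT2/+ R26 tdT/tdT, which marks cells that expressed Ccr2 at the time of tamoxifen, and all their brains were taken 1 day after a clot was induced with thrombin in the middle cerebral artery (MCA). For 7 days they had received by gavage either BLZ945, an inhibitor of the CSF1 receptor, at 200 mg/kg (BLZ), or vehicle (CTL). Tamoxifen (2 mg per day) began on the last gavage day, and the stroke followed 8 weeks later. MG were sorted as CD45int CD11b+ CD206- and sdCAMs, the leptomeningeal and perivascular macrophages, as CD206int-high cells that were tdT+ or tdT-, from a coronal slice without choroid plexus. The study's methods add that cells with Ly6C, Ly6G or CD11c, surface markers of monocytes, neutrophils and dendritic cells, were gated out. There were 5 libraries each of MG CTL, MG BLZ, tdT- sdCAM CTL and tdT- sdCAM BLZ, and 3 of tdT+ sdCAM BLZ. The libraries are named F1 to M2 after their titles, and within a treatment the same name marks the same animal or pool. A CTL library came from 1 mouse and, per the study's methods, a BLZ library from 2 pooled mice. The library name of BLZ F2 carries 1 animal number only, so its pooling is not settled. The library names of BLZ F2 and BLZ M1 share an animal number, so results are also given without both. Xist, transcribed in female cells, had 2302, 1045 and 1131 counts in the MG, tdT- and tdT+ libraries of BLZ F2 and 0 in the MG and tdT- libraries of BLZ M1. Mice were 10 ± 3 weeks old at the first gavage.

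The libraries held 9433960 to 13276081 counts, so 3 counts corresponded to 0.226 to 0.318 CPM (counts scaled to the library total). Marker genes went with the sort. The summed CPM of P2ry12, Tmem119, Sall1, Siglech and Sparc was 9004 to 15138 in MG libraries and 538 to 1164 in sdCAM libraries. That of Mrc1, Pf4, Ms4a7, Cd163, Lyve1 and Clec12a was 8591 to 14230 in sdCAM libraries and 11.6 to 48.4 in MG libraries. The neuronal genes Snap25, Syt1, Rbfox3 and Tubb3 summed to 38.5 to 110 CPM in sdCAM libraries and 4.53 to 12.4 in MG libraries, and the fibroblast and mural genes Col1a1, Col1a2, Dcn, Rgs5 and Acta2 to 21.2 to 66.6 and 1.1 to 19. Astrocyte markers (21.3 to 106 against 4.40 to 10.4 CPM) and oligodendrocyte markers (140 to 331 against 78.9 to 133) were also higher in every sdCAM library. The sum of the neutrophil list S100a8, S100a9, Retnlg and Csf3r was lower (36.6 to 126 against 152 to 245). Retnlg was at 0 in every MG CTL and tdT- CTL library, and the sum was not split by gene. The monocyte genes Ly6c2, Ccr2, Plac8 and Chil3 stayed at or below 42.9 CPM in sum in all libraries but 2, tdT- BLZ M1 and tdT- BLZ F1, the latter at 215. Their part in the results below was not tested. In bulk samples, fewer cells of a type and less RNA per cell cannot be told apart.

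The mitochondrially encoded share of OXPHOS could not be described. The 13 protein-coding genes of the mitochondrial genome (ND1 to ND6 with ND4L, CYTB, COX1 to COX3, ATP6 and ATP8) are listed at 0 in every one of the 23 libraries, and the table holds no row with the prefix mt-. Transcripts of these genes are abundant in nearly every cell, so a 0 here says nothing about their level. All values below are therefore of nuclear genes.

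Several OXPHOS promoters share binding sequences of nuclear respiratory factors. To show what the members have in common beyond function, the 300 bases around each start site (250 before, 50 after) were searched on both strands for 4 short cores in the RefSeq promoters of build GRCm38.p6, which held 77 of the 99 members. CATGCGC, the core of the NRF1 site, stood in 19.5% of members, against 7.92% of the 9931 genes tested below that had a promoter and 4.41% of all genes with a promoter. CCGGAAG, the core read by GABPA and other ETS factors, stood in 23.4% of members, against 20.3% and 9.93%. ATGGCGG (YY1) was found in 15.6%, against 9.61% and 4.69%, and AAGGTCA (oestrogen-related receptors) in 10.4%, against 3.94% and 5.38%. These are shares of letters and not of bound sites. The median member promoter held 20 CG pairs, against 22 in genes tested and 8 in all.

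Stretches before the start sites of 5 complex IV genes are shown because the results below turn on complex IV and on its widely used (Cox5b, Cox6a1, Cox6b1) and tissue-restricted (Cox6b2, Cox7a1) subunits. Cores on either strand are in capitals. The stretches are on build GRCm38.p6 at chr1:36691317-36691448 (Cox5b, plus strand), chr5:115348982-115349128 (Cox6a1, minus strand), chr7:30626152-30626284 (Cox6b1, minus strand), chr7:4753095-4753264 (Cox6b2, minus strand) and chr7:30184001-30184143 (Cox7a1, plus strand), and each ends before the earlier of the RefSeq and GENCODE starts. Its last base lies 39, 24, 38, 1 and 28 bases from the RefSeq start, in the same order.
Cox5b: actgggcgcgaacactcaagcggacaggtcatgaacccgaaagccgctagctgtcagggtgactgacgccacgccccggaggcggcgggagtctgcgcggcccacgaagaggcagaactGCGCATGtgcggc
Cox6a1: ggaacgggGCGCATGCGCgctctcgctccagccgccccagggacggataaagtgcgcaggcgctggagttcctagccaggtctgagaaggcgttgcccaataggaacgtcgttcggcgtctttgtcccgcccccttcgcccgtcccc
Cox6b1: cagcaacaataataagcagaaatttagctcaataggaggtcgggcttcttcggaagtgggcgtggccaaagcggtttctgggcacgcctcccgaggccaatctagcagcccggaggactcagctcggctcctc
Cox6b2: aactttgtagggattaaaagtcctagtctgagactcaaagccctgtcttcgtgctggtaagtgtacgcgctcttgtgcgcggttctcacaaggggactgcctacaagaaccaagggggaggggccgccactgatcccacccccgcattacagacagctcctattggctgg
Cox7a1: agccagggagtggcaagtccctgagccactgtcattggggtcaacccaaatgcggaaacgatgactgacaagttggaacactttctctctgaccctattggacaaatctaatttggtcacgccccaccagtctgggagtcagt
Cox5b carries 1 NRF1 core, and in Cox6a1 the core stands on both strands in an overlapping palindrome. Cox6a1 and Cox6b1 each hold an ETS core after the end of the stretch shown. Cox6b2 and Cox7a1 hold none of the 4 cores in their 300 bases, with 10 and 7 CG pairs against 27 in Cox5b, 32 in Cox6a1 and 17 in Cox6b1.

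OXPHOS subunit genes together took 1.03 to 1.07% of all counts in the 5 MG CTL libraries and 0.81 to 1.05% in the 5 MG BLZ libraries. They took 1.06 to 1.44% in tdT- CTL, 1.12 to 1.70% in tdT- BLZ and 1.32 to 1.65% in tdT+ BLZ. In tdT- CTL the libraries F3 (1.42%) and M2 (1.44%) stood above the other 3 (1.06 to 1.17%). In tdT- BLZ and in tdT+ the F2 library was the highest of its group. Cytosolic ribosomal protein genes moved across libraries in a similar way, from 0.76% in tdT- CTL M1 to 1.05% in F3 and 1.16% in M2, and to 1.31% in tdT- BLZ F2 and 1.49% in tdT+ F2. In CTL mice, 4 of the 5 tdT- libraries lay above every MG library in the OXPHOS share, while the ribosomal shares of tdT- (0.76 to 1.16%) and MG (0.97 to 1.17%) overlapped. In BLZ mice the ribosomal share was 0.71 to 0.94% in MG, 0.85 to 1.31% in tdT- and 1.08 to 1.49% in tdT+ sdCAMs, so that it went the same way as the OXPHOS share.

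**Figure D1:**
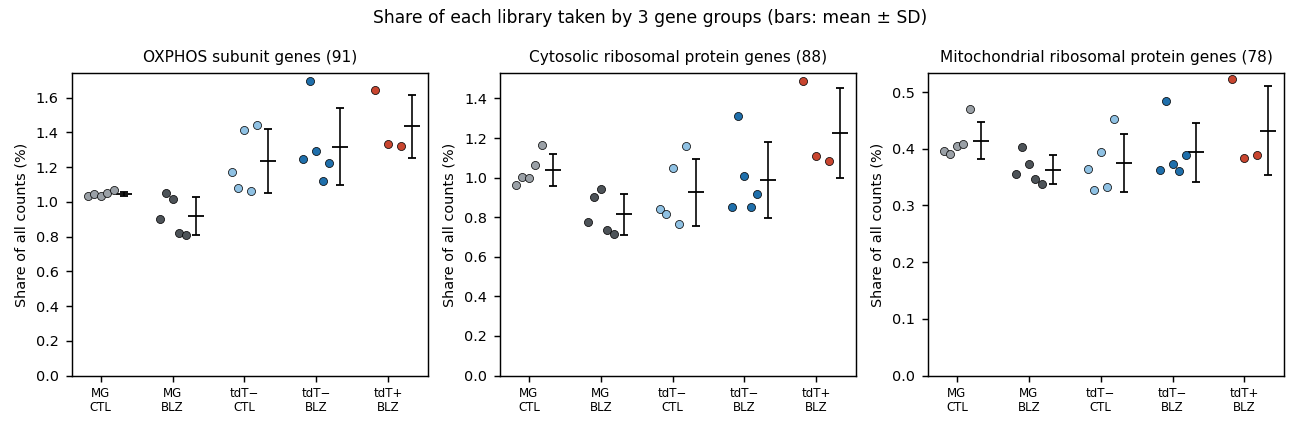
Share of each library's counts (%) in OXPHOS subunit genes, cytosolic ribosomal protein genes and mitochondrial ribosomal protein genes, 1 point per library in the 5 groups, with mean ± SD. The OXPHOS share lay between 1.03 and 1.07% in MG CTL and reached 1.70% in tdT- BLZ F2 and 1.65% in tdT+ BLZ F2, the libraries that were also highest in ribosomal genes.

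Among single members, the highest mean levels per kilobase of transcript in MG CTL were those of Cox6a1 (426 CPM per kb), Cox6b1 (411) and Atp5f1e (404). In tdT- CTL they were those of Cox6a1 (702), Cox6b1 (637) and Ndufa4 (547). The members that passed the count filter in none of the comparisons were Cox4i2, Cox7b2, Cox8b and Cox8c, with 60, 2, 34 and 12 counts summed over the 23 libraries, and Ndufb11b and Ndufs6b with 0. Between 88 and 92 members had enough counts to be tested in a given comparison. Cox6b2, Cox7a1 and Ndufa4l2 entered the comparisons with MG through their sdCAM counts, and Cox6a2 through its MG counts, so a difference in these 4 is no independent sign. Ndufb4b and Ndufb4c (174 and 161 counts over all libraries) are near copies of Ndufb4, and how reads were split among them is uncertain.

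The first question was how the sdCAMs differ from MG sorted out of the same brains. In CTL mice, 23 of the 91 members tested were higher in tdT- sdCAMs and 2 were lower (edgeR quasi-likelihood test, Benjamini-Hochberg adjusted p under 0.05 over 12697 genes), where 15.3% of all genes tested were called higher and 10.3% lower (25.6% in either direction). The median log2 difference of the members was 0.36 against -0.01 for all genes, and 0.23 without tdT- CTL F3. In complex IV 8 of 16 tested members were higher and 1 lower, with the highest median of the complexes (0.62). The 16 include Cox6b2, Cox7a1, Ndufa4l2 and Cox6a2 (the 1 lower), which entered the test through the counts of 1 cell type. No count or median was taken without them. In complex II 3 of 4 were higher, in complex V 5 of 18, in complex I 5 of 37 and in complex III 1 of 8, the last 2 below the 15.3% of all genes. With the animal as a block, a fit added after the data were seen, 35 members were called higher and 2 lower (14.6% of all genes higher), and without tdT- CTL F3 or M2 the calls in either direction were 14 and 15 of 91, below the share of all genes called in the same fits (23.2% and 23.3%). Even with all libraries, the 25 calls in either direction were close to the background of 25.6%.

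In BLZ mice 63 of 91 members were higher and 2 lower in tdT- sdCAMs than in MG, where 18.3% of all genes were called higher and 14.1% lower (32.4% in either direction). The median of the members was 0.72, against -0.02 for all genes. By complex, the calls higher were 27 of 37 in complex I, 2 of 4 in II, 4 of 8 in III, 15 of 16 in IV and 14 of 18 in V. The complex IV calls include Cox6b2, Cox7a1 and Ndufa4l2, which entered the test through their sdCAM counts. Of the 23 members higher in CTL, 22 were also higher in BLZ, all but Sdha. The 2 comparisons contrast different libraries but were fitted in 1 model with a shared filter and spread, so they are not independent. The same overlap over all genes was not computed. Those 22 are 95.7% of the CTL calls and 34.9% of the BLZ calls. Leaving out BLZ F2 and M1 gave 50 higher and 2 lower (12.5% of all genes higher). The tdT+ sdCAMs, compared with the same MG BLZ libraries, had 62 of 91 members higher and 2 lower, with 15.9% of all genes called higher and 14.6% lower (30.5% in either direction). Their median was 0.81, and complex IV again had the highest, at 1.1 with 13 of 15 members higher, Cox6b2 and Cox7a1 among them. With the animal or pool as a block these counts were 44 and 0 (7.35% of all genes higher), and without BLZ F2 and M1 they were 41 and 1 (11.6%).

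**Figure D2:**
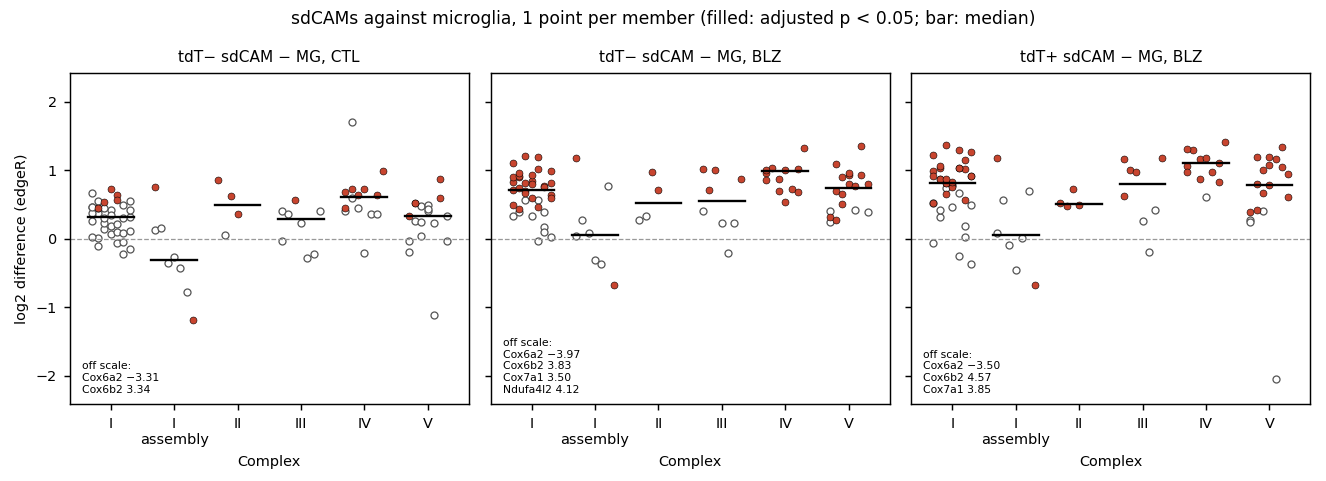
log2 difference (edgeR) of every tested member between sdCAMs and MG, by complex, for tdT- CTL, tdT- BLZ and tdT+ BLZ; filled points passed adjusted p under 0.05, bars are medians, and the members beyond the axis are written in each panel. Most points of complexes I, III, IV and V lay above 0 in the 2 BLZ panels, with a median of 0.99 for complex IV in tdT- and 1.1 in tdT+ sdCAMs.

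Among called members with a mean log2 CPM of at least 3, Cox8a, Atp5if1 and Ndufa7 had the largest rises in both BLZ comparisons. Cox8a, a small accessory subunit of complex IV, was at 142, 138, 132, 168 and 121 CPM in MG CTL and at 240, 235, 368, 231 and 316 in tdT- CTL. In BLZ it was at 124, 171, 151, 95.3 and 87.1 CPM in MG, at 252, 554, 311, 229 and 224 in tdT- and at 367, 314 and 313 in tdT+ sdCAMs. Every sdCAM library lay above every MG library of its treatment. The log2 differences were 0.99 ± 0.23 (SE; adjusted p = 0.00255, edgeR) in CTL, 1.33 ± 0.23 (adjusted p = 0.00014, edgeR) for tdT- in BLZ and 1.41 ± 0.21 (adjusted p = 0.000663, edgeR) for tdT+.

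Atp5if1, the inhibitory factor that binds the F1 part of complex V, was at 117, 131, 139, 136 and 106 CPM in MG CTL and at 189, 180, 331, 180 and 265 in tdT- CTL, again without overlap. It rose by 0.87 ± 0.20, 1.36 ± 0.21 and 1.34 ± 0.16 in the 3 comparisons. Ndufa7, an accessory subunit of complex I, was at 105 to 116 CPM in MG CTL and 123 to 221 in tdT- CTL, a difference of 0.53 ± 0.19, beside 1.21 ± 0.20 for tdT- and 1.38 ± 0.22 for tdT+ in BLZ. The change from CTL to BLZ was not called (below). Among the widely used complex IV subunits, Cox6c differed by 0.69, 1.01 and 1.31, Cox5a by 0.73, 1.03 and 1.3, and Cox5b by 0.64, 0.87 and 1.17 in the same order, all called. The CTL call of Cox6c was lost without tdT- CTL F3 or M2. Cox4i1, the subunit on which complex IV assembly begins with COX1, differed by 0.40 ± 0.17 in CTL, which was not called (adjusted p = 0.084, edgeR), and by 0.97 and 1.06 in BLZ, both called. With the animal as a block, since MG and tdT- sdCAMs came from the same animals, the CTL difference of Cox4i1 was 0.39 and called (adjusted p = 0.0265, edgeR).

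Of the 7 nuclear core subunits of complex I, 1 was called higher in CTL and 3 in each BLZ comparison, with medians of 0.09, 0.39 and 0.50, where 15.3%, 18.3% and 15.9% of all genes were called higher. The accessory subunits had medians of 0.38, 0.76 and 0.82, and 4 of 30, 24 of 30 and 22 of 31 were called higher. The difference between core and accessory subunits was not tested. Ndufs1, which carries iron-sulphur clusters of the NADH arm, ranged from 59.1 to 82.3 CPM in MG CTL and from 60.6 to 88 in tdT- CTL, with log2 differences of 0.09, 0.10 and -0.37 in the 3 comparisons, none called. Ndufv1, which binds NADH, ranged from 93.4 to 108 CPM in MG CTL and from 84.0 to 101 in tdT- CTL, with differences of -0.15, 0.03 and -0.05, none called and the latter pair changing sign when some libraries were left out. In both genes the groups overlapped. Ndufs7, the last iron-sulphur carrier before ubiquinone, was the core member called in CTL, at 0.57 ± 0.17 (not called without tdT- CTL F3), and differed by 1.02 and 1.15 in BLZ.

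In complex III the core protein Uqcrc1 was at 216 to 246 CPM in MG CTL and 237 to 311 in tdT- CTL and was called in none of the 3 comparisons (0.23, 0.23 and 0.26). The Rieske iron-sulphur protein Uqcrfs1 was not called either (-0.21, 0.24 and 0.42). Uqcrb, a small accessory subunit, was called in all 3 (0.57, 1.00 and 0.98), the CTL call being lost without MG CTL F3, tdT- CTL F3 or tdT- CTL M2. In complex V, the alpha and beta subunits of the catalytic head, Atp5f1a and Atp5f1b, differed by 0.34, 0.32 and 0.40 and by 0.26, 0.28 and 0.42. All but the CTL difference of Atp5f1b were called, and that one was called with the animal as a block (adjusted p = 0.0422, edgeR). It was also called with the replicate block (adjusted p = 0.0436, edgeR), which joins different animals across treatments. Each of the other calls was lost under at least 2 alternatives, among them leaving out tdT- CTL F1 or M2 in CTL and leaving out BLZ F2 and M1 in BLZ. With the animal or pool as a block both tdT+ calls were lost (adjusted p = 0.135 and 0.138, edgeR). The peripheral stalk subunit Atp5pd differed more, by 0.52, 1.09 and 1.19, all called, though the CTL call was lost when any 1 of the 5 MG CTL libraries or tdT- CTL F1, F3 or M2 was left out.

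All 4 subunits of complex II, which also serves the TCA cycle as succinate dehydrogenase, were tested. Sdha, the flavoprotein, was at 214, 221, 163, 180 and 195 CPM in MG CTL and at 388, 333, 332, 337 and 364 in tdT- CTL, with no overlap and a log2 difference of 0.86 ± 0.17 (adjusted p = 0.000608, edgeR). In BLZ mice it was at 320, 156, 343, 365 and 207 CPM in tdT- sdCAMs, of which F2 and M2 lay below every MG BLZ library (216 to 253), and the difference of 0.28 ± 0.17 was not called (adjusted p = 0.223, edgeR). Without tdT- BLZ F2 it was called there as well (0.42, adjusted p = 0.0216, edgeR). In tdT+ sdCAMs Sdha was at 320, 249 and 413 CPM (0.52 ± 0.16, adjusted p = 0.033, edgeR), a call lost in 11 alternatives, among them the replicate block and leaving out tdT+ F2 or M2 or any of MG BLZ F1, F2, F3 and M1. Sdhc, a membrane anchor, was called in all 3 comparisons (0.63, 0.98 and 0.73), as was the other anchor Sdhd (0.36, 0.72 and 0.49), whose CTL call was lost without MG CTL M2 or tdT- CTL F3 and whose tdT+ call was lost in 9 alternatives, the animal or pool as a block among them. Sdhb, the iron-sulphur subunit, was called for tdT+ sdCAMs (0.48, lost in 9 alternatives, the animal or pool as a block among them) and not in the other comparisons (0.05 and 0.33). The latter was called in 5 alternatives, among them DESeq2 and the animal or pool as a block (adjusted p = 0.0393, edgeR).

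The size of the difference went with transcript length. Across the members with a known length (87 in the tdT- comparisons and 86 for tdT+), the Spearman correlation between length and log2 difference was -0.44 in CTL, -0.55 for tdT- in BLZ and -0.60 for tdT+. Over all genes tested it was 0.0011, -0.14 and -0.18. The members were short, with a median length of 865 bases against 3024 for all genes in the tdT- comparisons. These are correlations across genes of the same libraries, which are not independent. The part of length in the results was not tested. Length also went with the BLZ945 comparisons given below: over all genes and over members the correlation was 0.28 and 0.32 for BLZ against CTL in MG, -0.15 and -0.15 in tdT- sdCAMs, and -0.26 and -0.27 for the difference of these differences.

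**Figure D3:**
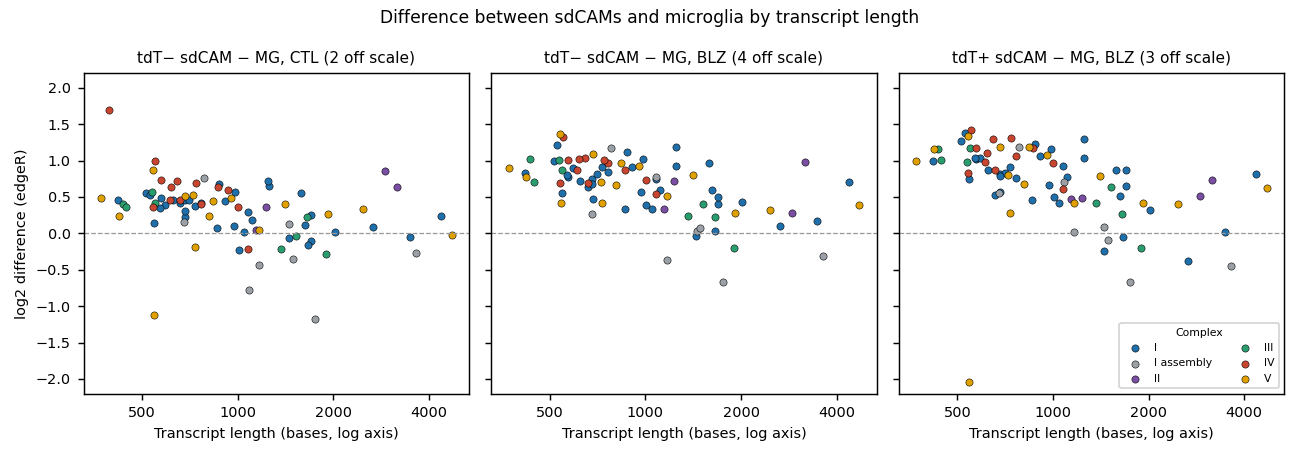
log2 difference between sdCAMs and MG against transcript length (log axis) for members with a length, coloured by complex, in the 3 comparisons; members with a difference beyond 2.2 are counted in the panel titles. Short members lay mostly above 0 and long ones nearer to it, with Spearman correlations of -0.44, -0.55 and -0.60.

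The isoform pairs of complex IV showed the largest differences in either direction, at low levels. Cox6a2, known as the heart and muscle form of subunit VIa, was at 11.7, 11.9, 13.8, 15.5 and 22.6 CPM in MG CTL and at 15.5, 15.7, 17.1, 6.20 and 11 in MG BLZ. In tdT- CTL it was at 2.11, 2.63, 0.395, 1.01 and 1.38 CPM, in tdT- BLZ at 0.750, 2.81, 0.539, 0 and 0, and in tdT+ at 2.68, 0.693 and 0. Every MG library was above every sdCAM library. The log2 differences were -3.31 ± 0.77 (adjusted p = 0.00244, edgeR), -3.97 ± 0.80 (adjusted p = 0.000615, edgeR) and -3.5 ± 0.94 (adjusted p = 0.0167, edgeR), the last lost with the replicate block. Its widely used partner Cox6a1 went the other way, from 238 to 248 CPM in MG CTL to 307 to 527 in tdT- CTL, with differences of 0.73, 1.01 and 1.18. Cox6a1 was thus the far more abundant form in both cell types.

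Cox6b2, known as the testis form of subunit VIb, was at 1.47, 0.788, 0.684, 1.28 and 0.306 CPM in MG CTL and at 7.16, 9.27, 13.4, 7.37 and 8.67 in tdT- CTL, without overlap (3.34 ± 0.73, adjusted p = 0.00147, edgeR). In tdT- BLZ it was at 7.82, 16.4, 9.08, 0.779 and 1.34 CPM, so that M1 and M2 lay near the MG BLZ libraries (0.0845 to 0.838), and the difference was 3.83 ± 0.76. In tdT+ it was at 10.8, 18.6 and 5.72 CPM (4.57 ± 0.70). Cox7a1, known from heart and muscle, was at 0.256 to 0.940 CPM in MG CTL, at 1.13 to 2.93 in tdT- CTL and at 3.11, 6.17, 2.7, 3.60 and 1.00 in tdT- BLZ. Its difference was not called in CTL (1.70 ± 0.65, adjusted p = 0.06, edgeR) and was called in BLZ (3.5 ± 0.70), and for tdT+ (3.85 ± 0.80), where the call was lost with the replicate block and without BLZ F2 and M1. Counts of Cox7a1 were few, between 1 and 62 per library.

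The widely used Cox6b1 and Cox7a2 were at 238 to 262 and 149 to 166 CPM in MG CTL. Cox6b1 was called in all 3 comparisons (0.64, 1.02 and 1.1; in CTL not without tdT- CTL F3), and Cox7a2, at 0.46, 0.70 and 0.87, in the BLZ comparisons and, with the animal as a block, in CTL (0.42, adjusted p = 0.0238, edgeR). Both BLZ calls of Cox7a2 were lost without BLZ F2 and M1, and the tdT+ call also without tdT+ F2. Cox7a2l, which joins complexes III and IV, was called for tdT- BLZ alone (-0.21, 0.54 and 0.61), a call lost in 9 alternatives, among them leaving out tdT- BLZ F2. Ndufa4 was higher in sdCAMs (0.45, 0.87 and 0.98), the CTL call being lost when any 1 of the MG CTL libraries was left out. Its relative Ndufa4l2, known from pericytes and hypoxic cells, was below 2 CPM in every MG and tdT- CTL library, and its call in tdT- BLZ (4.12 ± 1.36) was lost in 9 alternatives, among them the replicate block, the animal or pool as a block (adjusted p = 0.0781 and 0.186, edgeR) and leaving out tdT- BLZ F2, which held 48 of its counts. The mural and fibroblast genes named above were at 27.5 to 66.6 CPM in sum in that group and 1.1 to 9.48 in MG BLZ. Their part was not tested. Of the 3 genes for the c ring of complex V, which encode the same mature protein, Atp5mc3 was called in all 3 comparisons (0.53, 0.70 and 0.80; in CTL not without tdT- CTL F3 or M2), Atp5mc1 for tdT+ (-0.03, 0.40 and 0.62, lost in 11 alternatives, the animal or pool as a block among them) and Atp5mc2 in none (-0.19, 0.41 and 0.28).

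**Figure D4:**
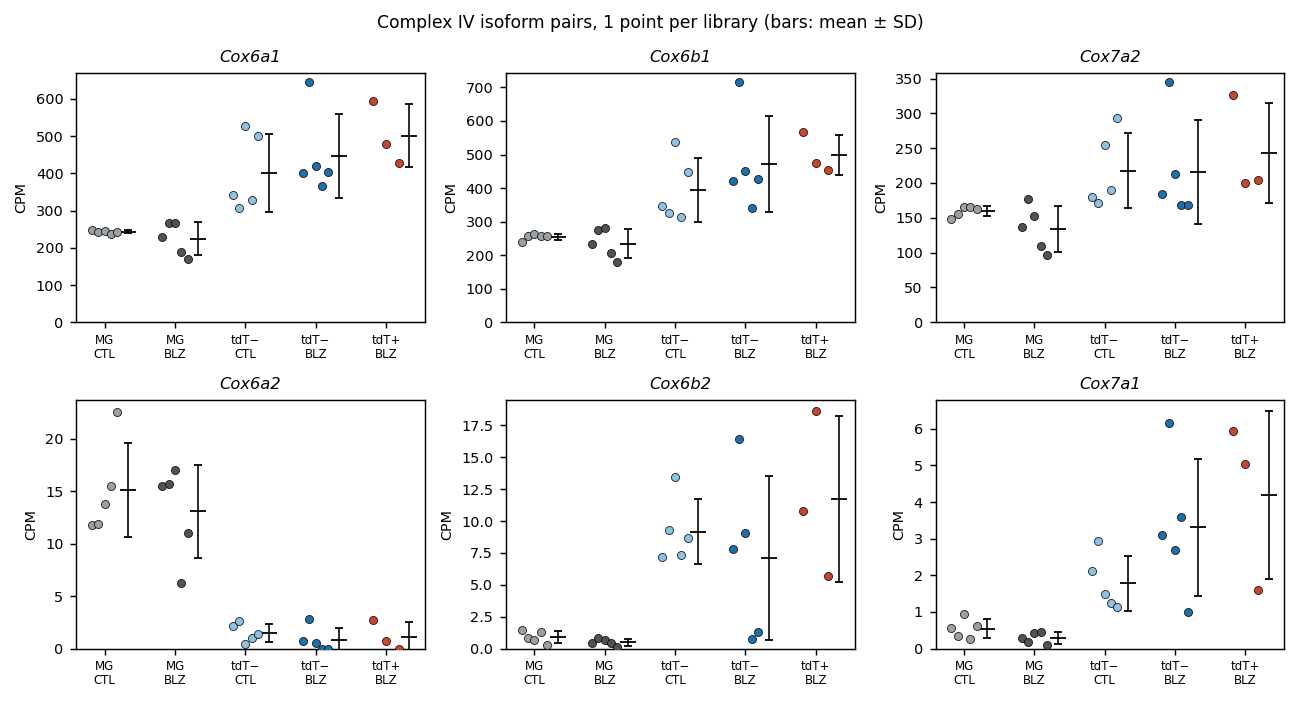
CPM of 3 pairs of complex IV isoforms, 1 point per library in the 5 groups, with mean ± SD; the upper row holds the widely used forms and the lower row the tissue-restricted ones on their own axes. Cox6a2 was at 6.20 CPM or more in every MG library and at 2.81 or less in every sdCAM library, while Cox6b2 and Cox7a1 were below 1.5 CPM in every MG library.

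Of the 8 Ndufaf assembly factors, 1 was called higher and 1 lower in each comparison, shares close to those of all genes (15.3, 18.3 and 15.9% higher and 10.3, 14.1 and 14.6% lower). Ndufaf7, a mitochondrial methyltransferase, was at 93.4, 84.4, 93.0, 95.4 and 66.5 CPM in MG CTL and at 44.7, 40.3, 35.3, 35.3 and 34.0 in tdT- CTL. It fell by 1.18 on the log2 scale in CTL (adjusted p = 4.8e-05, edgeR) and by 0.67 in each of the BLZ comparisons, the tdT+ call being lost with the replicate block and without BLZ F2 and M1. Ndufaf8, another assembly factor of complex I, was higher by 0.76, 1.18 and 1.18, the tdT+ call being lost with the replicate block. The median difference of the 8 was -0.31, 0.06 and 0.05, beside 0.37, 0.75 and 0.84 for the subunit genes.

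Genes related to OXPHOS and outside the symbol rule were followed in 4 lists, and their counts are to be read against the same shares of all genes. Of 35 tested assembly factors of the 5 complexes outside the Ndufaf genes, 2, 8 and 7 were higher in sdCAMs, and 0, 0 and 1 lower, in the 3 comparisons (34 tested for tdT+), which is below or near the background. The call with the lowest p in the whole list was Ndufaf7 in CTL, Cox14 (0.96) for tdT- in BLZ and Pet100 (1.03) for tdT+. Of 9 electron carriers and exchangers, Cyc1 among them, 4, 4 and 5 were higher, led by Slc25a3, the mitochondrial phosphate carrier, at 0.62, 0.79 and 0.75. Cyc1, a subunit of complex III itself, was at 145 to 171 CPM in MG CTL and 106 to 132 in tdT- CTL and was called in none of the 3 (-0.35, 0.06 and 0.00). Of 17 genes of the TCA cycle, 3 were higher and 2 lower in CTL, 4 and 3 for tdT- in BLZ, and 2 and 2 for tdT+. Idh2, the mitochondrial isocitrate dehydrogenase, led each, at 1.03 ± 0.12, 1.81 ± 0.12 and 1.55 ± 0.19. It was at 174 to 185 CPM in MG CTL and 341 to 390 in tdT- CTL.

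Of 19 regulators of mitochondrial biogenesis, 1 was higher in CTL and 0, 4 and 6 were lower in the 3 comparisons. The 1 higher was Ppargc1a, a coactivator of OXPHOS genes, at 0 to 0.184 CPM in MG CTL and 0.296 to 2.67 in tdT- CTL, a call lost in 10 alternatives. Its MG CTL values were below the floor of 3 counts in every library and it passed the filter through sdCAM libraries, so its call is no independent sign. Lrpprc, which stabilises mitochondrial mRNA, fell by 1.05 for tdT- in BLZ (not called without BLZ F2 and M1), and Gabpb1, the partner of GABPA, fell by 1.07 for tdT+. Of the 78 genes of the mitochondrial ribosome, 3 were higher and 3 lower in CTL (median -0.05), 18 and 1 for tdT- in BLZ (0.25) and 24 and 1 for tdT+ (0.32). Of 80 tested cytosolic ribosomal protein genes, 0 were higher and 4 lower in CTL (-0.04), 35 and 0 for tdT- in BLZ (0.45) and 60 and 1 for tdT+ (0.70). Beside these, 22, 62 and 61 of 83 OXPHOS subunit genes were higher and 1 was lower in each comparison, and the OXPHOS and ribosomal lists were not tested against each other.

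The second question was whether CSF1R inhibition 8 weeks earlier left a difference within each cell type. In MG, 0 of 88 members were called between BLZ and CTL, where 0.408% of all genes tested were called. At an unadjusted p under 0.05 there were 17 (19.3%, against 13.2% of all genes), and DESeq2 called 0 as well. The members nevertheless leaned to one side, 82 of 88 with a negative log2 difference and a median of -0.19 against 0.00 for all genes, which was -0.12 without MG BLZ M2 and -0.28 without F2. Short genes in general had lower differences in this comparison (Spearman 0.28 with length over all genes), and the members were short. The part of length was not tested. Cytosolic ribosomal protein genes had a median of -0.34 and mitochondrial ones of -0.18 in the same comparison. Cox8a was at 121 to 168 CPM in CTL and 87.1 to 171 in BLZ (-0.17), and Cox4i1 at 101 to 112 and 73.5 to 114 (-0.27). For both, MG BLZ M1 and M2 were among the lowest libraries and F2 and F3 were within or above the CTL range. Ndufs7 (-0.39 ± 0.11, adjusted p = 0.162, edgeR) and Atp5f1e (-0.46 ± 0.15, adjusted p = 0.188, edgeR), named after their values were seen, were the subunits with the lowest p, and without MG BLZ F2 both were called. Atp5f1c was the 1 member whose BLZ libraries all lay below the CTL libraries (-0.26 ± 0.09, adjusted p = 0.229, edgeR), against 1.36% of all genes. Among the genes of the 4 related lists, Idh2 alone was called, from 174 to 185 CPM in CTL to 79.1 to 118 in BLZ, which was -0.84 ± 0.11 (adjusted p = 0.0026, edgeR).

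In tdT- sdCAMs, 0 of 92 members and 0 of 13076 genes (0%) were called between BLZ and CTL. At an unadjusted p under 0.05 there were 3 members (3.26%, against 5.33% of all genes), and DESeq2 called 0 members. Of the 92 log2 differences 83 were positive, with a median of 0.21 against 0.00 for all genes, but 1 library carried much of it: the median was 0.05 without tdT- BLZ F2 and 0.07 without BLZ F2 and M1. Fewer genes were detected in tdT- BLZ libraries (12733 to 14460) than in tdT- CTL libraries (14633 to 15590), and the part of this was not tested. Cox4i1 was at 119 to 166 CPM in CTL and at 132, 254, 171, 144 and 168 in BLZ (0.31). Sdha was at -0.32. The groups overlapped in every member, and in all genes 0.612% had every BLZ library higher and 1.22% every BLZ library lower.

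The third question was whether tdT+ sdCAMs, derived from Ccr2-expressing cells, differ from tdT- sdCAMs of the same animals. Of 92 members 0 were called, where 0.206% of all genes were. At an unadjusted p under 0.05 there were 0 members, against 6.91% of all genes, and DESeq2 called 0. The median was 0.09, but its size and sign changed with the libraries and the pairing: it was 0.26 without tdT- BLZ F2, -0.03 without tdT+ F2, -0.02 with the replicate block and 0.004 with the animal or pool as a block. Against tdT- CTL, 0 of 92 members were called (0.283% of all genes), 6 had an unadjusted p under 0.05 (6.52%, against 7.44% of all genes), DESeq2 called 0 and the median was 0.29, which was 0.17 without tdT+ F2, 0.16 without BLZ F2 and M1 and 0.15 with the replicate block. The replicate block joins libraries of the same name, which across treatments are different animals, so it is no pairing in that comparison. Of the members, 4 had all tdT+ libraries above all tdT- CTL libraries, against 3.27% of all genes. The biological coefficient of variation was 0.704 across sdCAM libraries and 0.253 across MG libraries.

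**Figure D5:**
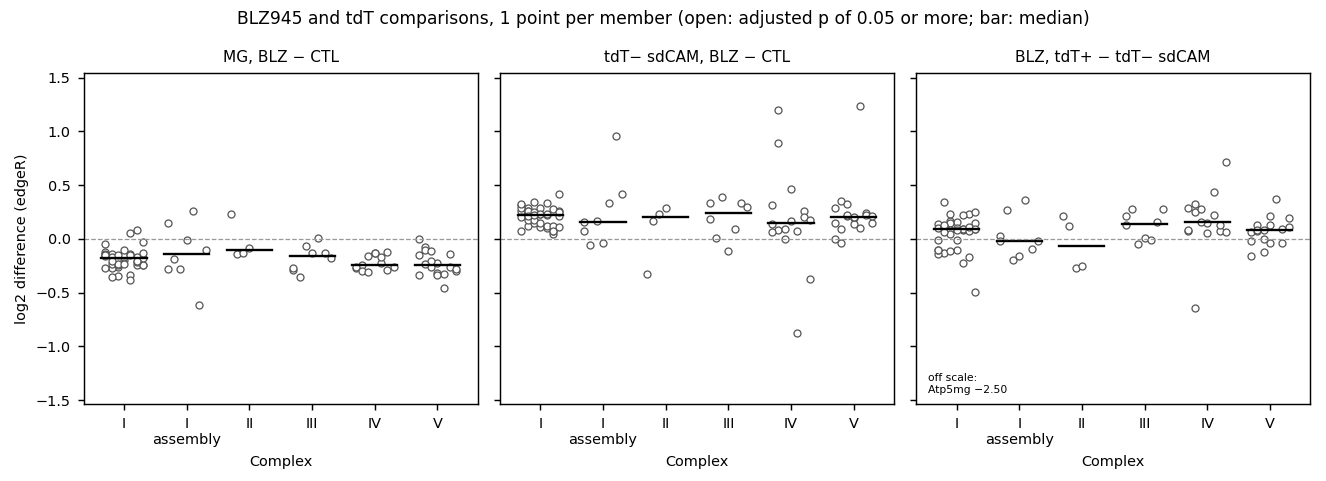
log2 difference (edgeR) of every tested member by complex for BLZ against CTL in MG, BLZ against CTL in tdT- sdCAMs, and tdT+ against tdT- sdCAMs in BLZ; all points are open because none passed adjusted p under 0.05, and bars are medians. Most points lay below 0 in MG (median of all members -0.19) and above 0 in tdT- sdCAMs (0.21, and 0.05 without tdT- BLZ F2).

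The difference between their BLZ effects was also tested. Of 91 members 0 were called by edgeR (0.0394% of all genes were), 15 had an unadjusted p under 0.05 (16.5%, against 8.69% of all genes), and 86 had a positive difference of differences, with a median of 0.41 against -0.03 for all genes, which was 0.25 without tdT- BLZ F2. Short genes in general had higher differences here (Spearman -0.26 with length over all genes), and the part of length was not tested. Cytosolic ribosomal protein genes had a median of 0.50 and mitochondrial ones of 0.28. Ndufa7 was at 0.68 and Cox4i1 at 0.56, neither called. Sdha was at -0.58. Ndufaf6, an assembly factor of complex I, had the lowest p at 1.55 ± 0.42 (adjusted p = 0.216, edgeR) and was the 1 member called by DESeq2, which called 0.173% of all genes higher. It was at 15.9 to 27.9 CPM in MG CTL, 10.9 to 17.5 in MG BLZ, 9.34 to 16.2 in tdT- CTL and 16.4, 18.8, 14.6, 43.0 and 29.4 in tdT- BLZ.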

How the data were processed

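The authors sorted cells into RNAprotect, prepared SMART-Seq mRNA libraries and sequenced them on an Illumina NextSeq per the labels of these samples, where the study's methods for bulk RNA-seq name a HiSeq. Per the submitters' processing notes they used bcl2fastq 2.20, STAR 2.7.11a, featureCounts 2.0.6 and DESeq2 1.46.0. The sources name more than 1 mouse genome build, so the table's build is not settled. The deposited table holds raw counts per gene for 23 libraries, with whole numbers and no unassigned rows. All its columns matched a sample.

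Groups came from the sample titles. Members and gene lists were chosen with earlier results of these data known. Genes passing edgeR's filterByExpr were tested with edgeR 4.0.16 (R 4.3.3; TMM factors, quasi-likelihood F test, Benjamini-Hochberg adjustment over all genes tested, threshold 0.05). Treatment in MG was fitted on the 10 MG libraries, comparisons among sdCAMs on 13, tdT- sdCAMs against MG and the difference of differences on 20, and tdT+ against MG on 8. log2 differences are first group minus second, with SE = log2 difference over the square root of F. CPM are edgeR's scaled counts with TMM factors over the 23 libraries. Lengths are those of the longest APPRIS principal transcript in GENCODE M21 (91 of 99 members). Within a group each library is another animal or pool, although the names of BLZ F2 and M1 share an animal number (Xist was at 0 in both M1 libraries), so p-values measure the spread between these libraries. The floor of 3 counts covers counting error only. The mitochondrial genes are listed at 0 in all libraries, so their planned shares and tests were not computed. A planned microglial marker is not reported here, and the sum of the list was taken without it.

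Within a treatment, libraries of the same name come from the same animal or pool. The mean correlation of their deviations from the group means was 0.117 between MG and tdT- CTL, 0.0870 between MG and tdT- BLZ, 0.133 between MG and tdT+, and 0.0713 between tdT- and tdT+ BLZ. No 2 libraries of a group agreed within sampling noise.

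Named members were the isoform groups, 2 core subunits of each complex, every called member of a comparison with 10 or fewer calls and otherwise the 3 largest rises and falls with a mean log2 CPM of at least 3, and the called gene of lowest p in each related list. Ndufa13, Ndufaf6, Ndufaf8, Ndufs7, Sdhc, Sdhd, Uqcrb, Cox6c, Atp5pd, Atp5f1c and Atp5f1e were added after their values were seen. The alternatives were DESeq2 1.42.0, RLE factors, 2 other filters, 1 model over all 23 libraries, replicate blocks, the letter F or M of the title as a term, and leaving out libraries. The replicate block joins libraries of the same name, also across treatments, where they are different animals. The block by animal or pool joins them within a treatment only. The edgeR steps were tested on simulated data for tdT- CTL against MG CTL with 12725 genes tested: at the spread of the 20 libraries, 74 of 100 genes changed by 2 on the log2 scale and 5 of 100 changed by 1 were called, with 4 false calls. The simulation gave every gene and group the same coefficient of variation (0.504), where the fits gave 0.253 for MG and 0.704 for sdCAMs. It is therefore no estimate of power for these data.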

Additional observations from a re-analysis of the deposited data

Results flagged for a closer look

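In 124 sets of 5 libraries (named members and library totals by group), 13 held a library that stood apart by Dixon's criterion at 95%, which chance alone would meet in about 1 set in 20. The sets share libraries, so they are not independent. The tdT+ BLZ group, with 3 libraries, was too small for the criterion and was not examined. Of these, 9 were in tdT- sdCAM BLZ, and 8 of the 9 were library F2. In that library Cox8a stood at 554 CPM (the other 4 at 224 to 311), Cox6a1 at 645 (366 to 419), Cox7a2 at 345 (168 to 213), Ndufa7 at 308 (159 to 194), Atp5mc3 at 477 (267 to 300), Sdhb at 377, above the others, and Cox6a2 at 2.81 (0 to 0.750). The share of counts from mitochondrial ribosomal protein genes was also highest there, at 0.484% (0.360 to 0.388%).

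In the same group Atp5f1a was highest in M1, at 803 CPM (the others at 652 to 679). In MG CTL, library M2 was high in Atp5mc1 at 104 CPM (70.3 to 76.9) and in the mitochondrial ribosomal share at 0.471% (0.391 to 0.409%), and F1 was low in Cox6b1 at 238 CPM (256 to 262). In MG BLZ, F2 was high in Ndufv1 at 112 CPM (85.8 to 92.8). No explanation for these libraries was tested.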

How the results depend on the processing

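The counts of called members stayed within 1.5 times of the reported ones in every comparison under RLE factors, both other filters, 1 model over all 23 libraries, the letter of the title as a term and the replicate block. DESeq2 called 1 member in the difference of differences in place of 0, and leaving out BLZ F2 and M1 gave 42 calls for tdT+ against MG in place of 64. Leaving out 1 library at a time gave 14 to 29 calls for tdT- against MG in CTL (14 of 91 without tdT- CTL F3 and 15 without M2, where 23.2% and 23.3% of all genes were called), 59 to 69 in BLZ, 51 to 66 for tdT+ against MG, 0 to 2 for BLZ against CTL in MG (2 without MG BLZ F2), and 0 to 0 in the other 4.

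With the replicate label as a block the calls were 27, 64 and 44 for tdT- CTL, tdT- BLZ and tdT+ against MG, and 0 in the other 5 comparisons. With the animal or pool as a block, added after the data were seen, they were 37, 67 and 44. Some members near 0 and Atp5mc2 for tdT+ changed sign, none of them called. Over the fits that left out 1 library, Atp5mc1 in CTL ranged from -0.179 to 0.0825 (positive without MG CTL M2, tdT- CTL F1, F2 or M1), Sdhb in CTL from -0.0761 to 0.0996 (negative without tdT- CTL F3), and Ndufv1 for tdT- in BLZ from -0.0344 to 0.098 (negative without MG BLZ F1 or F3 or tdT- BLZ M1, and at -0.0071 without BLZ F2 and M1). For tdT+, Atp5mc2 ranged from -0.0566 to 0.5909 (negative without tdT+ F2) and Ndufv1 from -0.0988 to 0.0313 (positive without MG BLZ F2 or tdT+ F3). The cause was not tested. The mitochondrial genes are at 0, so leaving them out of the totals changes nothing and their share could not be compared. At 3 counts the floor was 0.226 to 0.318 CPM, which limits what can be said of Cox4i2, Cox8b, Ndufa4l2 and Ppargc1a.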
